A study of Mus musculus with 6 samples.

Results

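Complement genes were followed in the eyeballs of newborn mice that lacked Brg1 in the lens lineage. The genes were C1qa, C1qb and C1qc, which encode the chains of C1q, C3, Cfb (factor B), Serping1 (C1 inhibitor), C3ar1 (the C3a receptor) and C5ar1 (the C5a receptor). A gene was measured by the probe sets that the annotation of the array platform assigns to that gene symbol alone, and where it had several, by the one with the highest mean log2 value over all 6 arrays. By this rule 7 of the 8 genes were measured, among 12393 genes on the array, and C3 was not analysed here because no probe set was assigned to it alone. The 7 genes have 10 probe sets.

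Single eyeballs were taken at postnatal day 1, 3 from Brg1 cKO pups and 3 from wild-type littermates, all on a mixed background and described as biological replicates. Brg1 is the product of Smarca4 and the ATPase that drives SWI/SNF chromatin remodelling complexes. Brg1 cKO pups combined floxed Brg1 alleles with Le-Cre, a Cre transgene that acts in the surface ectoderm and its descendants, the lens, corneal epithelium and eyelid epidermis. Controls are wild type by their labels and the study's array methods name wild-type littermates, while its results state that floxed Brg1 animals served as controls in general. Occasional germline deletion of Brg1 was also described in these mice. No eyeball with Le-Cre alone was included, so the effects of the transgene and of Brg1 loss cannot be told apart. Deletion by this Cre is incomplete and the eyes of the mutants vary in severity, and a whole eyeball also holds lens, retina, muscle, vessels and blood cells.

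Values are log2 intensities after RMA normalization and a difference is Brg1 cKO minus wild type. Differences were tested with limma over 22626 probe sets with 3 eyeballs per group, and the threshold was an adjusted p (Benjamini-Hochberg) under 0.05. The 25th percentile of all values, log2 4.84, is called the low end. It is a cut chosen here, below which a signal may not be separable from background. Without detection calls the cut could not be checked. Array medians lay between 169.1 and 185.5 on the intensity scale. Smarca4 differed by 0.18 (SE 0.19, adjusted p = 0.866), with wild-type values of 10.11, 9.82 and 9.81 and Brg1 cKO values of 10.35, 9.93 and 9.98. Xist, which is transcribed from the inactive X chromosome of females, lay between 12.30 and 12.92 on 5 arrays and at 4.88 on that of Brg1 cKO replicate 1, so the sexes were not balanced between the groups. The lens markers had a median difference of -2.31, with 9 of 10 lower in every mutant than in every wild-type eyeball, against 6.38% of all genes, and 0 past the adjusted threshold. Of 10 markers of surface epithelium and epidermis, 2 passed, both lower, where 33 of all 12393 genes were lower past the threshold. They were Krt12, the corneal keratin, at -3.71 and Ehf, an epithelial ETS factor, at -3.88. The median of that list was -1.04, with 5 of 10 lower and 2 of 10 higher without overlap, against 6.38% and 8.46% of all genes. The part of the lower epithelial and lens markers in the complement values was not tested.

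Complement is a proteolytic cascade of innate immunity. C1q recognises antibody and dying cells and starts the classical pathway through the proteases C1r and C1s, factor B carries the amplification loop of the alternative pathway, and C1 inhibitor stops C1r and C1s. The fragments C3a and C5a attract and activate myeloid cells through C3ar1 and C5ar1, and the integrins built on Itgb2 bind C3 fragments. In mouse, macrophages and microglia are the main source of C1q, which also tags synapses for removal in the developing visual system.

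Sequence before the transcription start was available for C1qb, C1qc, C3ar1 and C5ar1, 4 of the 7 genes (RefSeq, GRCm38.p6). The first 3 are printed, 250 bases each and 5′ to 3′ toward the start. C1qb and C1qc are neighbours on chromosome 4 and encode chains of C1q, and C3ar1 is the gene whose probe sets gave unequal differences. Capitals mark GAGGAA, the core of sites for PU.1, the ETS factor of the myeloid lineage, or its reverse complement.
C1qb (chr4:136886201-136886450, minus strand): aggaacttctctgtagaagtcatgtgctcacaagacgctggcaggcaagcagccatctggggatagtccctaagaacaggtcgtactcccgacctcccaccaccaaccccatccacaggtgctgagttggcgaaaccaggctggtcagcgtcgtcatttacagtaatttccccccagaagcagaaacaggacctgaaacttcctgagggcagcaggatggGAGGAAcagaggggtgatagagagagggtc
C1qc (chr4:136892915-136893164, minus strand): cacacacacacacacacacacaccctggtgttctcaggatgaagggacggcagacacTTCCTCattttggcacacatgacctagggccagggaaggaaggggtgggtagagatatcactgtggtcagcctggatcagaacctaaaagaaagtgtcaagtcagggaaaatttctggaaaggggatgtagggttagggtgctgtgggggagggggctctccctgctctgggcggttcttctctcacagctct
C3ar1 (chr6:122856158-122856407, minus strand): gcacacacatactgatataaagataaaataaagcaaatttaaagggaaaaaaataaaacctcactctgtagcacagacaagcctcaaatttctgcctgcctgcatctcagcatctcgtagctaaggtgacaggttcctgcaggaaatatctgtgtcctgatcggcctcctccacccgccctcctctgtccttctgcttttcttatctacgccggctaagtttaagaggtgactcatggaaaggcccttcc

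The PU.1 core lay 30 to 25 bases before the start in C1qb and, on the opposite strand, 193 to 188 bases before the start in C1qc. It was not found in these windows of C3ar1 and C5ar1, and 23.3% of all 32851 promoters in the table hold it on either strand. C1qc also carried an NF-kappaB consensus 41 to 32 bases before the start, which 3.90% of promoters hold, and C3ar1 a TATAAA match 235 to 230 bases before it, which 12.4% hold. These are matches of letters, and binding was not measured.

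Of the 7 genes, 0 passed the adjusted threshold on the probe set chosen by the rule, where 0.694% of all genes passed in either direction and 0.428% were higher. At an unadjusted p under 0.05 and a fold over 1.5, 2 of 7 were higher (Cfb and Serping1), against 4.45% of all genes. All 7 differences were positive, with a median of 0.56, where 52.9% of all genes had a positive difference and the median was 0.02. Cfb and C5ar1, 2 of 7, were higher in every Brg1 cKO eyeball than in every wild-type eyeball, against 8.46% of all genes.

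**Figure D1:**
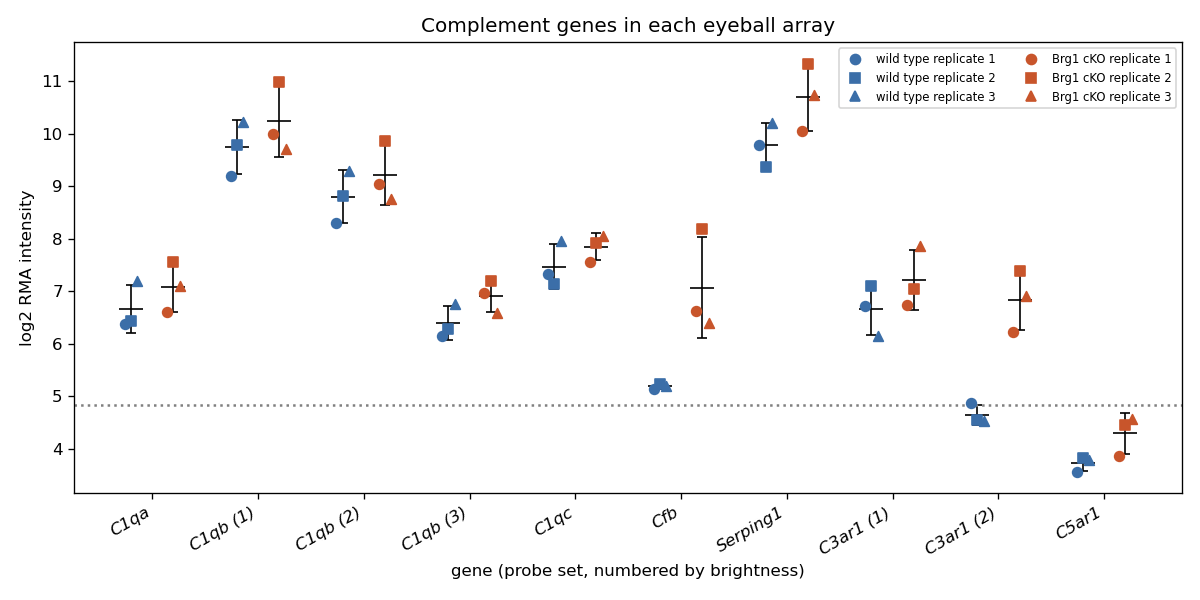
Log2 RMA intensity of the 10 probe sets of the 7 complement genes on each of the 6 arrays; bars are the group mean and SD, n = 3, and the dotted line is the low end, log2 4.84. Cfb, the second C3ar1 probe set and, by 0.03 at the low end, C5ar1 separate the groups, while the C1q chains overlap.

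The chains of C1q did not differ past the threshold. C1qa, the A chain, measured 6.37, 6.43 and 7.20 in the wild types and 6.61, 7.56 and 7.10 in the mutants, a difference of 0.42 (SE 0.32, 95% interval -0.33 to 1.18, adjusted p = 0.801). The third wild-type eyeball lay within the mutant range. C1qb, the B chain, measured 9.20, 9.79 and 10.22 in the wild types and 10.0002, 10.98 and 9.70 in the mutants, a difference of 0.49 (SE 0.39, interval -0.42 to 1.41, adjusted p = 0.811). Without Brg1 cKO replicate 2 these differences were 0.19 for C1qa and 0.12 for C1qb. C1qc, the C chain, measured 7.32, 7.14 and 7.95 in the wild types and 7.55, 7.92 and 8.05 in the mutants, a difference of 0.38 (SE 0.26, interval -0.23 to 0.99, adjusted p = 0.782), and 0.21 without wild-type replicate 2. With each eyeball left out in turn the differences ranged from 0.19 to 0.69 for C1qa, 0.12 to 0.76 for C1qb and 0.21 to 0.62 for C1qc. The intervals of the 3 chains include no change and also reach 0.99 to 1.41, and those of C1qa and C1qb reach past a doubling.

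C1qb had 3 probe sets. The brightest gave the values above, the second gave a difference of 0.42 (adjusted p = 0.826) and the dimmest gave 0.52 (SE 0.24, adjusted p = 0.654). In RefSeq the 3 genes follow each other on chromosome 4 in the order C1qb, C1qc, C1qa. Their profiles over the 6 arrays were compared as the root mean square distance between log2 values centred on their mean. C1qa and C1qc were 0.21 apart, which placed C1qc 145th among the genes nearest to C1qa. C1qb stood 0.31 apart from C1qa, in 719th place. C1qb and C1qc were 0.47 apart, which placed C1qb 7121st among the genes nearest to C1qc. The gene nearest to C1qa was Lama2, a laminin chain, at 0.06.

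Cfb had the largest difference of the 7 genes and did not pass the adjusted threshold. Its wild-type values were 5.14, 5.23 and 5.19, just above the low end. The Brg1 cKO values were 6.62, 8.18 and 6.40, so that the lowest mutant lay 1.17 above the highest wild type. The difference was 1.88 (SE 0.44, interval 0.85 to 2.91), or 3.68-fold, with an adjusted p of 0.204. A two-sided permutation test, exact over the 6 eyeballs, gave p = 0.1, the smallest this design allows. The spread lay in 1 mutant. Without Brg1 cKO replicate 2 the difference was smaller, 1.33 (SE 0.18), and passed the threshold (adjusted p = 0.0305).

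Cfb and C2, which encode homologous proteases of the alternative and the classical pathway, are neighbours on chromosome 17. C2 measured 6.76, 6.45 and 6.81 in the wild types and 7.30, 7.87 and 6.93 in the mutants. Every mutant value lay above every wild-type value, the nearest by 0.12, and the difference was 0.69 (SE 0.27, adjusted p = 0.536). The profiles nearest to that of Cfb were those of Gpr35, a G protein-coupled receptor (distance 0.14), Csf3r, the receptor for the granulocyte growth factor G-CSF and a gene of the neutrophil marker list (0.16), and Rdh12, a retinol dehydrogenase (0.16).

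Serping1, whose product blocks the proteases C1r and C1s, overlapped between the groups. It measured 9.77, 9.36 and 10.20 in the wild types and 10.04, 11.33 and 10.73 in the mutants. The difference was 0.92 (SE 0.36, interval 0.07 to 1.77), or 1.89-fold, with an adjusted p of 0.552. Brg1 cKO replicate 1 lay below the third wild-type eyeball, and without replicate 2 the difference was 0.61. The nearest profiles were those of Ampd3 (distance 0.08), Icam1, an adhesion molecule of endothelium and leukocytes (0.10), and Arpp21 (0.10).

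The C3a receptor gave unequal values on its 2 probe sets. The brighter measured 6.72, 7.10 and 6.15 in the wild types and 6.74, 7.04 and 7.86 in the mutants, a difference of 0.56 (SE 0.36, interval -0.28 to 1.39, adjusted p = 0.760). Only Brg1 cKO replicate 3 lay above the wild-type range on it, and without that eyeball the difference was 0.23. The dimmer measured 4.87, 4.55 and 4.52 in the wild types, at the low end, and 6.22, 7.39 and 6.92 in the mutants. With the wild-type mean under the low end no fold is given. The signal was 2.19 higher (SE 0.30) and passed the threshold (adjusted p = 0.0328), the 1 of the 10 probe sets of these genes to do so, where 0.508% of all probe sets passed. There was a gap of 1.35 between the groups. The difference of the dimmer exceeded that of the brighter by 1.64, with no overlap of the within-array contrasts. The exact permutation p was 0.1, the smallest possible, and 0.1 after adjustment over 4 pairs. The other pairs were the integrin pairs given below and Cfb with C1qb. The difference of Cfb was 1.39 larger than that of C1qb (exact permutation p = 0.1). The dimmer C3ar1 probe set had passed and Cfb had the largest difference of the genes. Both contrasts therefore rest on those differences and add no separate support. The call on the dimmer probe set was lost without any 1 of the wild-type eyeballs (adjusted p = 0.153, 0.178 and 0.158) and without Brg1 cKO replicate 3 (0.126). Under template matching, the selection method the study used, the call was also lost after adjustment (adjusted p = 0.402, unadjusted p = 0.00354). That unadjusted p lay under the study's cut of 0.05. The study paired this cut with a fold cut and stated no adjustment. The mean of both probe sets differed by 1.38 (adjusted p = 0.0829).

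C5ar1 stayed at the low end in both groups. It measured 3.55, 3.82 and 3.79 in the wild types and 3.86, 4.45 and 4.58 in the mutants, a difference of 0.57 (SE 0.23, adjusted p = 0.570). The groups did not overlap by 0.03, with Brg1 cKO replicate 1 next to wild-type replicate 2, and at this signal a change in RNA would be understated. Its neighbour C5ar2 was not analysed here.

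A wider list of 47 complement genes placed these 7 in their pathway, and 35 of the 47 were measured. Of these 2 were higher and 0 lower past the threshold, both receptors: Itgb2 and Itgax. Among all genes 0.428% were higher past it. The differences were positive for 18 and negative for 17, the median was 0.06, and 16 had both group means under the low end. At an unadjusted p under 0.05 and a fold over 1.5, 6 were higher and 1 lower, against 552 higher and 353 lower of all 12393 genes.

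**Figure D2:**
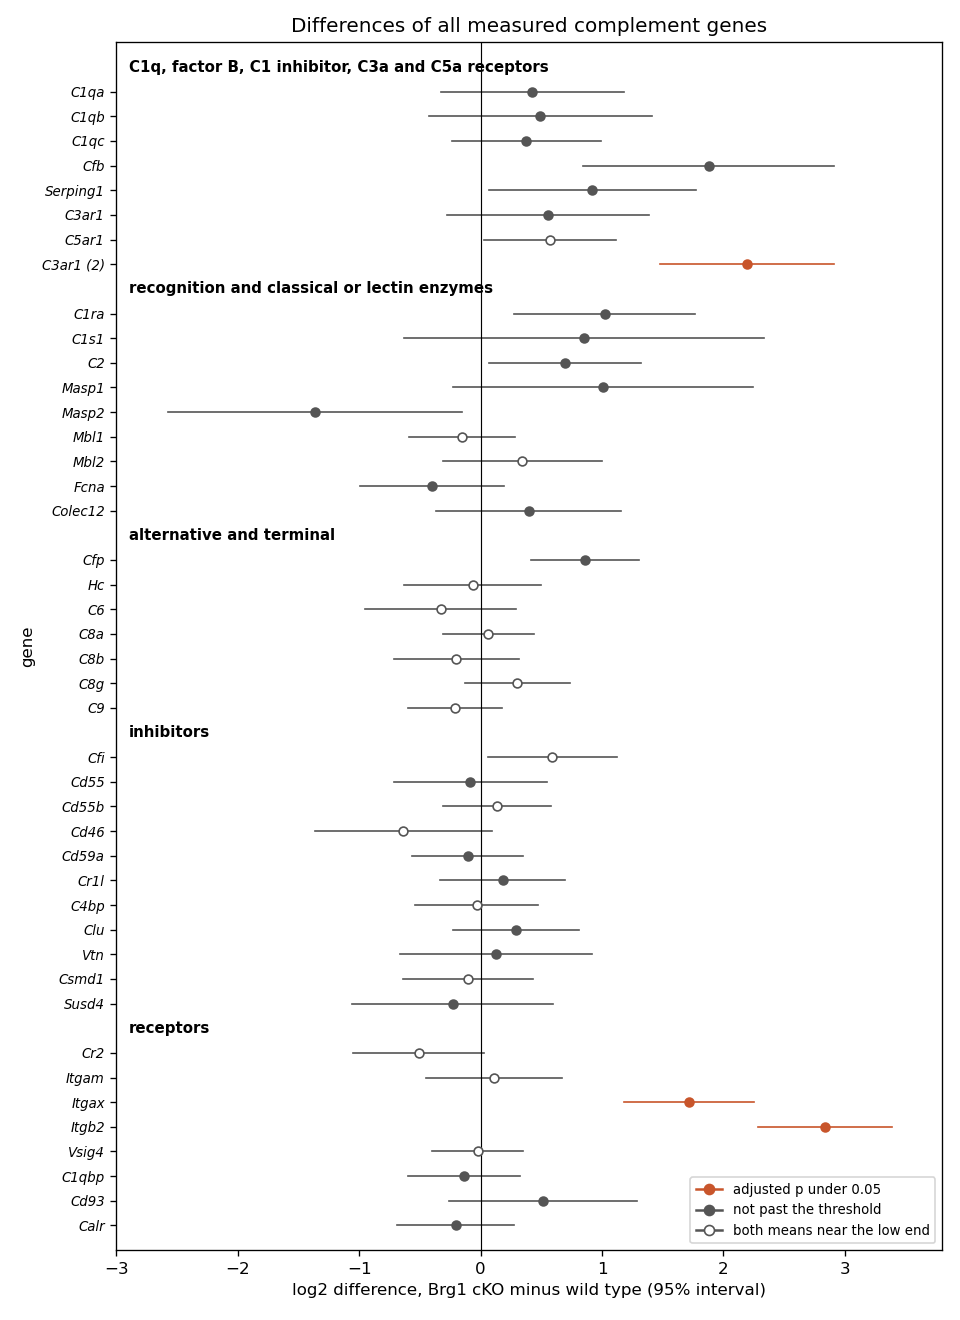
Log2 difference, Brg1 cKO minus wild type, with its 95% interval from limma, for the 7 genes, the second C3ar1 probe set and the 35 further complement genes grouped by role; open circles have both means under the low end. Itgb2, Itgax and the second C3ar1 probe set are the ones past the adjusted threshold.

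Among the recognition molecules and proteases of the classical and lectin pathways, 9 of 16 were measured, 0 passed the threshold and the median difference was 0.39. C1ra, the protease that C1q activates first, measured 5.64, 5.42 and 5.73 in the wild types and 5.97, 7.24 and 6.64 in the mutants. All mutants lay above all wild-type eyeballs, by 1.02 in the mean (SE 0.32, adjusted p = 0.401). C1s1, its partner, differed by 0.85 and overlapped (adjusted p = 0.800). Masp1, a protease of the lectin pathway, differed by 1.01 on the brightest of 5 probe sets (adjusted p = 0.697), with the groups overlapping and Brg1 cKO replicate 2 far above the others at 8.48. Masp2, which cleaves C4 and C2, measured 5.95, 5.42 and 6.74 in the wild types and 4.32, 3.94 and 5.73 in the mutants, a difference of -1.37 (SE 0.52, adjusted p = 0.526). The groups overlapped and the mutant mean was under the low end. The ficolin gene Fcna differed by -0.40 (adjusted p = 0.756).

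In the alternative and terminal group 7 of 9 genes were measured, 0 passed and 6 had both means under the low end, among them Hc, which encodes C5, and the membrane attack components C6, C8a, C8b and C9. C8g differed by 0.30 at the low end (adjusted p = 0.749). Cfp lay above the low end and encodes properdin, the stabiliser of the alternative convertase that factor B builds. Cfp measured 7.79, 7.93 and 7.69 in the wild types and 8.86, 8.74 and 8.39 in the mutants. The groups were 0.47 apart at their nearest values, and the difference was 0.86 (SE 0.19, 1.81-fold, adjusted p = 0.173). Unlike Cfb, it was highest in Brg1 cKO replicate 1.

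Of 13 inhibitors 11 were measured, 0 passed and the median difference was -0.03. Clu, the terminal pathway inhibitor clusterin, averaged 12.04 in wild type and differed by 0.29 (interval -0.23 to 0.81). The membrane inhibitors Cd59a and Cd55 differed by -0.11 (interval -0.56 to 0.35) and -0.09 (-0.72 to 0.54). Cfi, the protease that inactivates C3b, and Cd46, its membrane cofactor, lay at the low end in both groups, with differences of 0.59 (adjusted p = 0.543) and -0.64 (adjusted p = 0.668).

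Of 9 further receptor genes 8 were measured, with 2 higher and a median of 0.04. Itgb2, the beta chain shared by the leukocyte integrins, measured 3.54, 3.09 and 3.36 in the wild types and 5.97, 6.58 and 5.96 in the mutants, 2.84 higher (SE 0.24, adjusted p = 0.00495). It passed without each single eyeball in turn. Under template matching it did not pass after adjustment (adjusted p = 0.257, unadjusted p = 0.000309). Itgax, the alpha chain of complement receptor CR4, measured 3.40, 3.44 and 3.62 in the wild types and 5.08, 5.63 and 4.90 in the mutants, 1.71 higher (SE 0.23, adjusted p = 0.0288). Its call was lost without any 1 wild-type eyeball (adjusted p = 0.176, 0.162 and 0.120), without Brg1 cKO replicate 1 (0.0598) and without replicate 3 (0.0608). Under template matching Itgax did not pass after adjustment either (adjusted p = 0.349, unadjusted p = 0.00171). Wild-type means of both genes were under the low end, so the differences are between measured signals and no fold is given.

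Itgam, the alpha chain of CR3, gave 2.90, 3.07 and 3.50 in the wild types and 2.96, 3.56 and 3.28 in the mutants, at the low end throughout (difference 0.11, adjusted p = 0.941). Within arrays, the difference of Itgb2 was 2.73 larger than that of Itgam, and the difference of Itgax was 1.61 larger. Neither contrast overlapped (exact permutation p = 0.1, the smallest possible, and 0.1 after adjustment over the 4 pairs). Itgb2 and Itgax were taken because they had passed, and Itgam stayed at the low end. These contrasts therefore restate the differences of Itgb2 and Itgax and add no separate support. With Itgam at the low end its RNA may have changed without a change in signal. Cr2, a B cell receptor for C3 fragments, differed by -0.51 at the low end (adjusted p = 0.633).

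Markers of leukocytes were read beside these genes. Among all genes 0.428% were higher past the threshold. Of 20 macrophage and microglia markers 19 were measured, and 2 passed, both higher: Fcgr1, an Fc receptor, and Cd14, the endotoxin co-receptor. All 19 differences were positive, with a median of 1.13, and 15 of 19 lay higher without overlap, against 8.46% of all genes. Cx3cr1, the fractalkine receptor of microglia, differed by 0.07 (adjusted p = 0.976). Their summed intensity was 3917 to 5469 in wild type and 8627 to 20142 in Brg1 cKO. The neutrophil list had 13 of 14 measured and 2 past the threshold, both higher: S100a8 and S100a9, the subunits of calprotectin. Its summed intensity was 629 to 1188 in the wild types and 7222 to 23516 in the mutants. Without S100a8 and S100a9 the other 11 genes summed to 339 to 713 and 400 to 1821. Only Brg1 cKO replicate 2 lay outside the wild-type range of that sum. The sum includes Mmp9, which measured 8.32, 4.56 and 8.04 in the wild types. Of the 13, 3 lay higher without overlap (S100a8, S100a9 and Csf3r), against 8.46% of all genes. Csf3r measured 3.59, 3.79 and 3.61 in the wild types and 5.23, 6.88 and 5.30 in the mutants. It differed by 2.14 (adjusted p = 0.127). Another 3 had negative differences (Ltf, Mpo and Elane), and Ltf, a granule protein gene, differed by -0.51. Mpo and Elane, which mark granulocyte precursors, were at the low end on all arrays. The C1q differences of 0.38 to 0.49 were under the median of the macrophage list, and Cfb and Itgb2 were over it. The intervals of C1qa and C1qb, up to 1.18 and 1.41, include that median. Markers of the list ranged from 0.07 (Cx3cr1) to 5.92 (Cd14). Mrc1 and Trem2 differed by 0.38 and 0.43, and Ptprc and Cd53 by 2.42 and 2.04. In a whole eyeball, more cells of a type and more RNA per cell cannot be told apart, and the part of the leukocyte markers in the complement values was not tested.

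**Figure D3:**
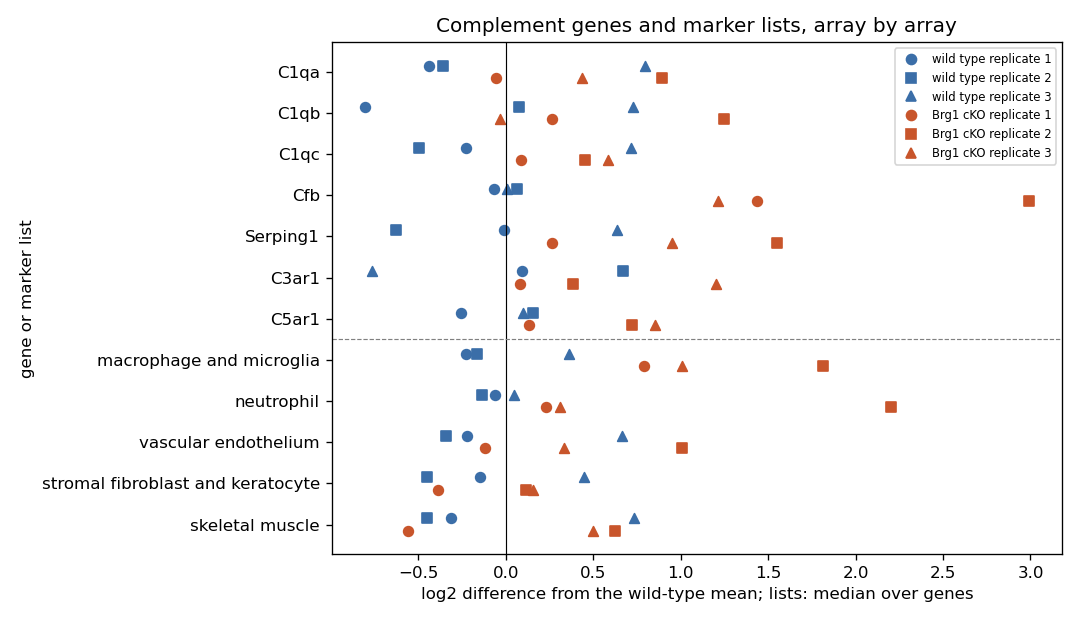
Log2 difference of each array from the wild-type mean (for a wild-type array, the mean of the other 2), for the 7 genes and, below the dashed line, as the median over the genes of 5 marker lists. Brg1 cKO replicate 2 is highest of the mutants for C1qa, C1qb, Cfb and Serping1 and for the macrophage, neutrophil and endothelial lists.

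Single eyeballs differed more than a mean shows. Relative to the wild-type mean, C1qb lay at 0.26, 1.25 and -0.03 in Brg1 cKO replicates 1 to 3, Cfb at 1.44, 2.99 and 1.22, and Serping1 at 0.26, 1.55 and 0.95. C1qc, C3ar1 and C5ar1 followed another order, with replicate 3 the highest, at 0.59, 1.20 and 0.85. The median of the macrophage list lay at 0.79, 1.81 and 1.01, that of the neutrophil list at 0.23, 2.20 and 0.31, and that of the endothelial list, with 0 of 8 called, at -0.12, 1.01 and 0.33. Replicate 2 was the highest mutant for Cfb and Serping1, for these lists, and also for skeletal muscle (0.62), erythroid (0.33) and lens markers (-0.66, against -2.59 and -3.73). For retina markers it was the lowest mutant (-0.53, against 0.59 and 0.21).

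Wild-type replicate 3 also stood above the other 2 for all 3 C1q chains and Serping1. It lay 0.66 above them for the endothelial list, 0.73 for skeletal muscle and 0.45 for stromal cells, lists with 0 genes called between genotypes. For the macrophage list, with 2 called, it lay 0.36 above them, and for the erythroid list 0.39. For surface epithelium and epidermis it lay at -0.31. Liver and plasma protein genes had 0 of 7 called and a median of 0.06, and Alb and Fga were at the low end on all arrays.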

How the data were processed

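RNA of 6 single eyeballs (50 ng each) was amplified with the NuGEN Ovation system, labelled with biotin and hybridised to Affymetrix GeneChip mouse genome arrays. The authors normalized the arrays with RMA, with software and version not given in the sources used here, and deposited linear intensity values, which were converted to log2 here. RMA pulls arrays together and compresses differences of dim probe sets, and the table holds no detection calls or read depth. Groups and replicate numbers came from the labels. Of 22690 table rows, 64 array controls were left out. The platform annotation gave 1 symbol to 20380 probe sets, several to 691 and none to 1555.

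Genotypes were compared with limma 3.58.1 (R 4.3.3), tested on simulated data beforehand. The model held genotype alone, tests were moderated and two-sided, and p-values were adjusted by Benjamini-Hochberg over 22626 probe sets. Named were the 8 genes of the rule, further complement genes past the threshold plus the 10 with the next smallest p, the nearest profiles, and up to 2 genes per cell type list. Others named illustrate a role and were chosen after their values were seen. The members and lists were chosen with earlier results of these data known. Alternatives were median centring, quantile normalization, a filter on dim probe sets, an offset of 16, trended robust moderation, array weights, the replicate number as a block, template matching (the methods' approach), the mean of a gene's probe sets, and leaving out each eyeball. Promoters came from RefSeq (GRCm38.p6).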

Additional observations from a re-analysis of the deposited data

How the results depend on the processing

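Across 20 single results (the 7 genes, the dimmer C3ar1 probe set and 12 further complement genes) and 292 alternative values, 0 changed direction, 275 kept their side of the threshold, 16 lost it and 1 gained it (Cfb without Brg1 cKO replicate 2). The 16 belonged to the dimmer C3ar1 probe set (7), Itgax (8) and Itgb2 (1, under template matching, adjusted p = 0.257). An offset of 16 added to the intensities gave 1.68 for the dimmer C3ar1 probe set (adjusted p = 0.130) and 0.96 for Itgax (adjusted p = 0.135). With the replicate block these became adjusted p = 0.105 and 0.0973, and under template matching 0.402 and 0.349. The count of the 7 genes past the threshold was 0 under every setting except 1 without Brg1 cKO replicate 2, a range of 0 to 1. The further complement genes numbered 2 past the threshold, 0 with the filter on dim probe sets, which left 17 to test and removed Itgb2 and Itgax, 1 with the offset of 16, 1 with the replicate block and 1 to 2 when an eyeball was left out. The genes past an unadjusted p of 0.05 and a fold of 1.5 numbered 2, 1 with the replicate block, 1 under template matching and 1 to 3 when an eyeball was left out. Over all probe sets 115 passed, 32 with the offset, 190 with array weights, 45 with the replicate block and 24 to 216 when an eyeball was left out. Same-numbered eyeballs deviated together only weakly (correlations 0.06, 0.08 and 0.13), so the numbers were not read as pairs. Dim signals limit C5ar1, the terminal components and Itgam, where changes may go unseen.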
